A study of Mus musculus with 6 samples.

Results

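The genes described here are 58 mitosis and spindle genes, measured by RNA sequencing of whole mouse kidneys at embryonic day 16. They were chosen by name as genes whose products act in mitosis, and a row of the deposited table was taken as a member where it held the gene's Ensembl identifier. All 58 had a row among the 13965 rows of the table, and all 58 were among the 13766 rows tested. Foxm1 and Top2a sat in joined rows with Tex52 and Gm23451, so their values cannot be assigned to 1 gene alone.

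The mutant group held 3 kidneys labelled Six2-TGC; miR-17~92 flx/flx, and the control group held 3 labelled WT, miR-17~92 flx/+. Both groups thus carried at least 1 floxed allele of the microRNA cluster, and the control label names no Six2-TGC transgene. Each of 3 litters gave 1 mutant and 1 control library. Six2-TGC is a transgene in which the Six2 promoter drives a Cre recombinase fused to GFP in nephron progenitors, so the cluster is removed in that lineage and is kept in the stroma, the ureteric bud, the vessels and the blood cells of the same kidney. The measurements are of the whole organ, in which fewer dividing cells and less of a transcript in each dividing cell cannot be told apart.

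Mitosis is entered when the kinase CDK1, bound to a B-type cyclin, becomes active. Kinetochores then attach chromosomes to the spindle, the spindle assembly checkpoint holds back the anaphase-promoting complex until attachment is complete, and the complex in turn frees separase and ends CDK1 activity. Most of these genes are transcribed late in the cell cycle, and their transcripts are abundant in dividing tissues and scarce in resting ones. In the embryonic kidney, dividing cells include the nephron progenitors of the cap mesenchyme, the renal vesicles, the stroma and the ureteric tips. The miR-17~92 cluster encodes microRNAs known for promoting proliferation, and its loss is known to affect growth in several tissues.

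Promoters of genes of the late cell cycle are known for CCAAT boxes, which bind NF-Y, and for a cell cycle element read as TTTGAA or TTTAAA, at which the DREAM and MuvB complexes act. The windows of 300 bases from RefSeq (GRCm38.p6, 250 bases before to 50 after the RefSeq start) are printed for 6 members because these members passed the test with litter as a block. Spc24 also passed and had no entry in the promoter table used. Capitals mark the CCAAT box and the TTTGAA or TTTAAA element on either strand, so that ATTGG is the reverse of the CCAAT box and TTCAAA that of the TTTGAA element.
Cenpa, chr5:30666636-30666935, + strand: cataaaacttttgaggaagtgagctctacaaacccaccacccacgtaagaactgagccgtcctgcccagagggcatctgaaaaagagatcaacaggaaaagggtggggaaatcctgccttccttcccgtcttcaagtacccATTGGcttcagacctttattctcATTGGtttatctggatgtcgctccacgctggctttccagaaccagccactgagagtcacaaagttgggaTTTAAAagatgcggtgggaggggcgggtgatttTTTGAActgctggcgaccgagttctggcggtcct
Ccnb1, chr13:100786437-100786736, - strand: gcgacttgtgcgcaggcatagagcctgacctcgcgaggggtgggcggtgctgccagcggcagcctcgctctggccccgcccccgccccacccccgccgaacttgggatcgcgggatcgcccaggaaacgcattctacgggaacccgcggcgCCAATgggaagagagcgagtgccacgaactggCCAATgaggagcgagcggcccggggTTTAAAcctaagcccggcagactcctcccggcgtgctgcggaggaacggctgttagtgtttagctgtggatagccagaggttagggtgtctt
Cdk1, chr10:69352863-69353162, - strand: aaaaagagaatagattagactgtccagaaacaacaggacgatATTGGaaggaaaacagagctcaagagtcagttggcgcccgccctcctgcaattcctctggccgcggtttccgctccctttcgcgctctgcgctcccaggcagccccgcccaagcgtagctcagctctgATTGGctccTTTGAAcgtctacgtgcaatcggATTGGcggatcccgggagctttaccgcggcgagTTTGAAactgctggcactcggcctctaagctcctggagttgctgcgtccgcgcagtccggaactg
Kif2c, chr4:117178723-117179022, - strand: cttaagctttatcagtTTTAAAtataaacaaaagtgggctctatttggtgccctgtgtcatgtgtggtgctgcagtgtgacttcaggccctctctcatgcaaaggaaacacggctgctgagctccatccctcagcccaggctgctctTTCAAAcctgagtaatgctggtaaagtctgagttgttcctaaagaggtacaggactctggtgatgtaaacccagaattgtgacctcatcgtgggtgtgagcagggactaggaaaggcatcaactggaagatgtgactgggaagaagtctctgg
Ube2c, chr2:164769679-164769978, + strand: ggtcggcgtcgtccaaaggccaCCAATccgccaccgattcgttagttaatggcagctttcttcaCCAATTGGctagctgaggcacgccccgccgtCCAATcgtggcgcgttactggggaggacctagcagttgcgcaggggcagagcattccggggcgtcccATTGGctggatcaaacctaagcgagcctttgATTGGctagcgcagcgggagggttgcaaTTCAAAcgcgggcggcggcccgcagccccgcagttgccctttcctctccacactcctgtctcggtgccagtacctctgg
Mad2l1, chr6:66534971-66535270, + strand: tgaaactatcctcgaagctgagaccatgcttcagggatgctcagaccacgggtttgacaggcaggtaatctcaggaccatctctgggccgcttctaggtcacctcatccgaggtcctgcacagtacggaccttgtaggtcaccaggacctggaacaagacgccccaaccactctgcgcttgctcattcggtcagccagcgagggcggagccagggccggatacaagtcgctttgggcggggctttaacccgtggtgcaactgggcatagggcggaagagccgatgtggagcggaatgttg

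The Cdk1 window held 3 CCAAT and 2 TTTGAA matches, and the Ube2c window held 6 CCAAT matches, of which a pair overlap on opposite strands, and 1 TTTGAA match. The Cenpa window held 2 CCAAT matches, 1 TTTAAA and 1 TTTGAA, and the Ccnb1 window held 2 CCAAT matches and 1 TTTAAA. The Kif2c window held 1 TTTAAA and 1 TTTGAA match and no CCAAT. None of the 3 motifs was found in the Mad2l1 window, which says only that these letters are not in these 300 bases. GENCODE M21 places a start of Kif2c upstream of the window printed and that of Mad2l1 downstream of it. Of the 54 windows that the table gives for 49 members, 75.9% held CCAAT, against 37.4% of all 32851 windows. TTTGAA was found in 72.2% of the members' windows, against 17.9% of all windows, and TTTAAA in 20.4%, against 13.2%. Both CCAAT and TTTGAA were found in 63.0% of the members' windows, against 6.95% of all windows. A match is a description of the sequence and not a measured binding site.

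Mature microRNAs of the deleted cluster are shown next, because their seeds (bases 2 to 8, in capitals) were searched for in the members' 3′ UTRs. The mature sequences are from RefSeq (GRCm38.p6), and the cluster lies on chromosome 14. miR-17-5p shares its seed with miR-20a-5p, and miR-19a-3p shares its seed with miR-19b-3p.
miR-17-5p: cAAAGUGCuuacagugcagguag
miR-20a-5p: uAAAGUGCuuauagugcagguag
miR-18a-5p: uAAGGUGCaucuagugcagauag
miR-19a-3p: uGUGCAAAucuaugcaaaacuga
miR-19b-3p: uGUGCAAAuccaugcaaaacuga
miR-92a-3p: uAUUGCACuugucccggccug

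A 7-base match to at least 1 of these seeds was found in the 3′ UTR of the longest annotated coding transcript in 15 of the 58 members (25.9%), against 33.9% of 13124 rows with a 3′ UTR. The members' 3′ UTRs were shorter, with a median of 602 bases against 1192 bases over those rows. The miR-17/20a seed had a match in 4 members (Foxm1, Bub3, Kif23 and Smc2), the miR-18a seed in 8, the miR-19 seed in 5 and the miR-92a seed in 1. The median log2 difference, mutant minus control, was -0.086 for the 15 members with a match and -0.096 for the 43 without. By seed it was 0.0575 for miR-17/20a, -0.086 for miR-18a, -0.086 for miR-19 and 0.038 for the 1 member with a miR-92a match. Members with a match had longer 3′ UTRs, with a median of 1369 bases against 526 bases for those without. A match in the sequence is no evidence that a microRNA acts on the transcript.

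Library totals were 48304108, 54913325 and 46672915 reads in the mutant kidneys and 43804667, 44011788 and 49473404 reads in the control kidneys, as given by the value of 1 read in each column. The members' rows had 25.5 to 1122 CPM (the reads of a gene scaled to the library total). The fewest reads inferred for any single value of a member were 1237. The errors given are of the spread between libraries, which includes counting error. The row of the deleted cluster's host gene joined Mir17hg with 6 of the microRNA genes and had 53.6, 39.8 and 44.6 CPM in mutant kidneys, against 34.1, 36.4 and 23.0 CPM in control kidneys. It was higher in each mutant library than in any control library (log2 difference 0.57, limma adjusted p = 0.22 for genotype alone and 0.029 with litter as a block), and it is no check of the deletion, since the row does not separate the host transcript from the deleted microRNA genes. Markers of the kidney lineages were present in every library, among them the progenitor gene Six2 with 31.1 to 43.9 CPM in mutant kidneys and 41.5 to 56.1 CPM in control kidneys.

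The 58 genes differed little between mutant and control kidneys, and most of the small differences were below 0. On the log2(CPM + 0.5) scale the fitted differences, mutant minus control, ran from -0.30 for Spc24 to 0.15 for Kif23. Their median was -0.086, against 0.012 over all tested rows. The difference was below 0 for 46 of the 58 members, where 46.9% of all tested rows were below 0. In the fit of genotype alone, limma called 0 of the 58 members at an adjusted p below 0.05, where 0.559% of all rows were called in either direction. An unadjusted p below 0.05 was found for 5 members, all lower in mutant kidneys, where 11.3% of all rows passed in either direction and 3.51% were lower. These members were Cdk1, Ccnb1, Cenpa, Spc24 and Kif2c.

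With litter as a block in the same limma model, 7 members fell and 0 rose, where 3.51% of all rows were called lower. At an unadjusted p below 0.05 this fit had 20 members, where 29.2% of all rows passed in either direction, and 19 of the 20 were lower, where 11.4% of all rows were lower. The 7 were Cenpa, Spc24, Ccnb1, Cdk1, Kif2c, Ube2c and Mad2l1, and each was lower in the mutant library of all 3 litters. The median SE of the members' differences was 0.050 with the block and 0.10 without it. All mutant libraries lay below all control libraries in 8 members, where 7.12% of all rows did so. The exact two-sided permutation p of each of the 8 was 0.1, the smallest that 3 against 3 libraries allow when the litter pairs are ignored, as they were here. No member had all mutant libraries above all control libraries, where 10.2% of all rows did so. Of the 58 members, 29 were lower in mutant kidneys in all 3 litters, where 22.2% of all rows were, and 14 were lower in 2 litters, 11 in 1 and 4 in none.

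**Figure D1:**
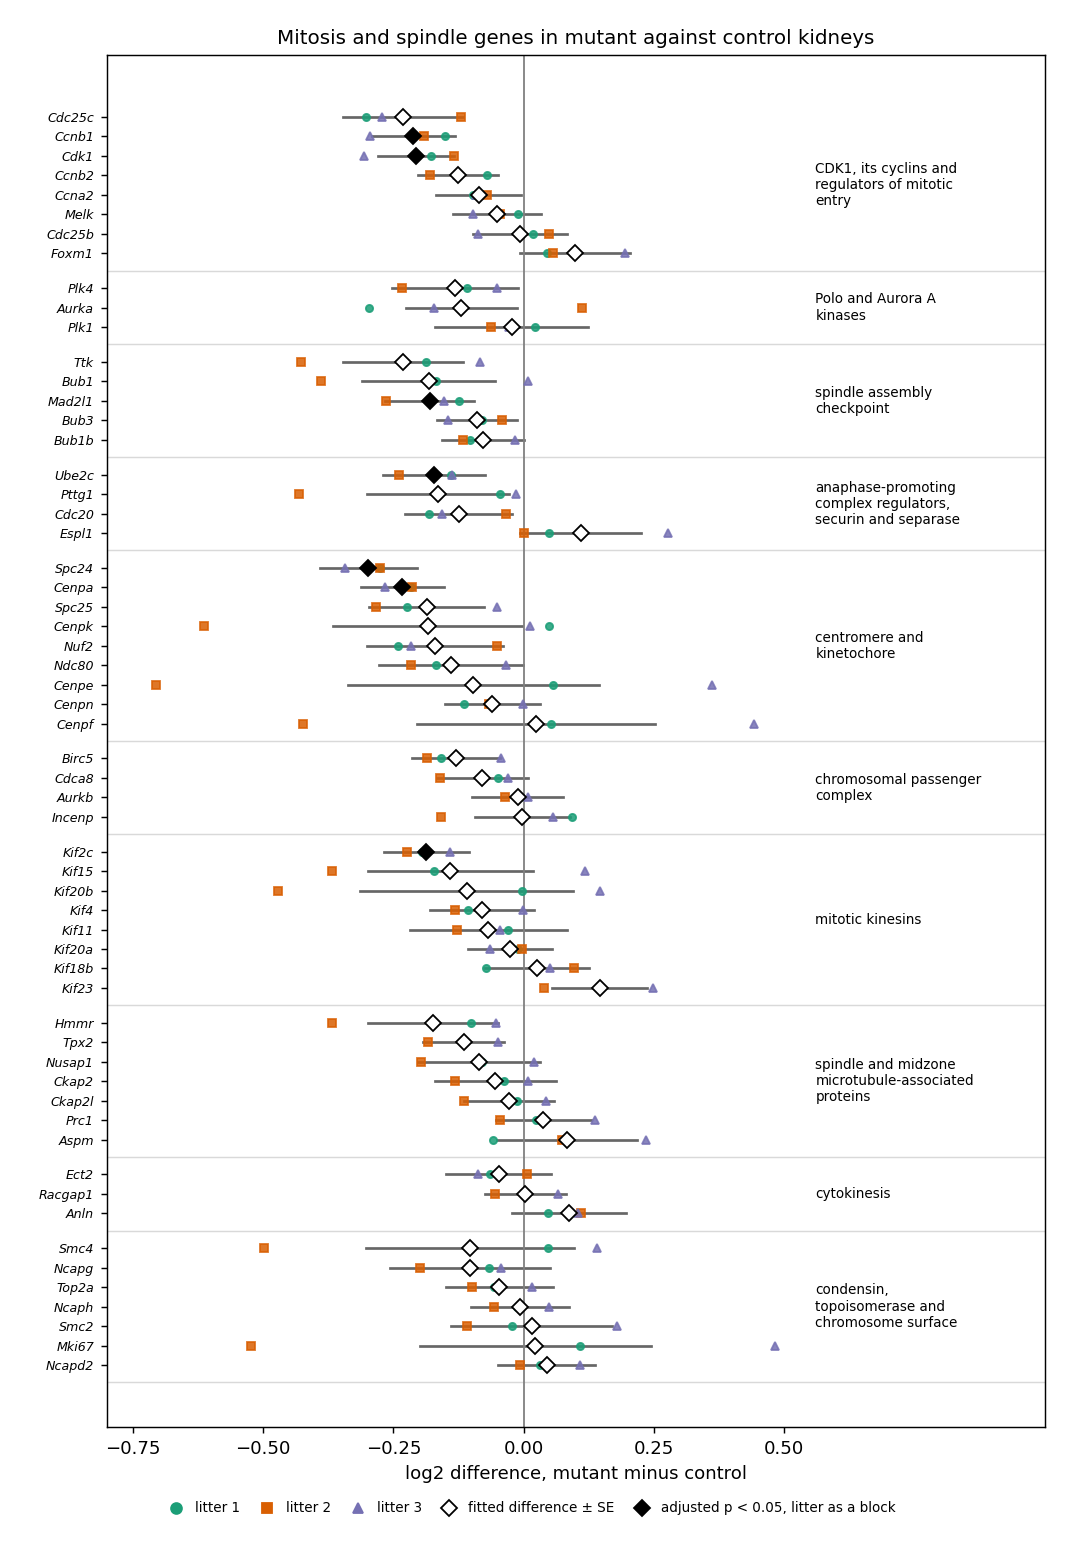
Log2 difference in CPM (mutant minus control, x axis) of each of the 58 mitosis and spindle genes (rows, grouped by role), with coloured points for the 3 litters, diamonds for the fitted difference and bars for its SE in the fit of genotype alone. Filled diamonds mark the 7 genes that fell with litter as a block, all of them between -0.30 and -0.17.

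The calls rested on the litters unequally. With litter as a block and both libraries of litter 1 left out, limma called 0 members, with 10 at an unadjusted p below 0.05, where 0.559% of all rows were called lower. Without litter 2, 10 were called, 7 lower and 3 higher (Cenpf, Kif23 and Mki67), where 3.28% of all rows were called lower and 6.91% higher. Without litter 3, 17 were called, all lower, where 6.12% of all rows were called lower. The share of all rows called thus moved with the litter left out as well. No fit of genotype alone that left out a single library called any of the 58.

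Of CDK1, its cyclins and the regulators of mitotic entry, 2 of 8 members fell with the block and 7 of 8 differences were below 0. Cdk1, the kinase that drives entry, had 271.6, 263.7 and 246.8 CPM in the mutant kidneys of litters 1, 2 and 3, against 307.2, 289.4 and 305.3 CPM in the control kidneys of the same litters. Every mutant library lay below every control library, and the gap was widest in litter 3. Ccnb1, its cyclin B1 partner, had 218.3, 195.6 and 194.0 CPM in mutant kidneys, against 242.3, 223.3 and 238.0 CPM in control kidneys. The groups did not overlap, although the highest mutant and the lowest control value were close. The log2 difference of Cdk1 was -0.21 (SE 0.045 with the block, limma adjusted p = 0.026), and that of Ccnb1 was -0.21 (SE 0.044, adjusted p = 0.022). In the fit of genotype alone their adjusted p was 0.31 and 0.34.

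The other cyclins differed less. Ccnb2, encoding cyclin B2, averaged 115.3 ± 1.66 CPM in mutant kidneys and 126.0 ± 4.72 CPM in control kidneys (SD, n = 3 each), with no overlap between the groups (adjusted p = 0.11 with the block). Ccna2, encoding cyclin A2, averaged 169.2 ± 8.70 CPM in mutant kidneys and 179.7 ± 10.8 CPM in control kidneys. Cdc25c, encoding a phosphatase that activates CDK1, had 36.4, 32.5 and 31.6 CPM in mutant kidneys, against 45, 35.4 and 38.2 CPM in control kidneys. It was lower in the mutant library of each litter, but the groups overlapped, and its log2 difference of -0.23 missed the threshold with the block (limma adjusted p = 0.054). Cdc25b and the kinase gene Melk were near 0, at -0.0065 and -0.051. The highest difference of this role was that of the row with Foxm1, the transcription factor of the late cell cycle, at 0.10 (SE 0.11, limma adjusted p = 0.78, and 0.24 with the block).

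**Figure D2:**
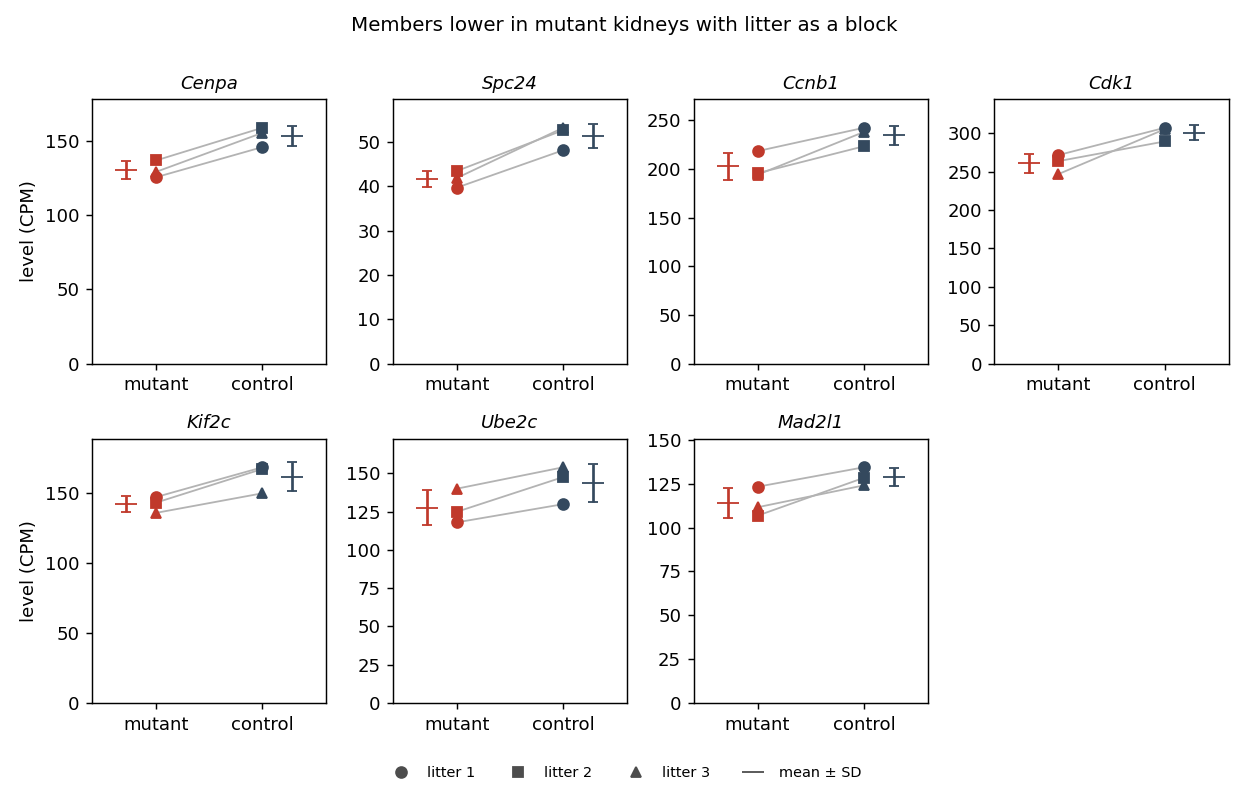
Level in CPM (y axis, from 0) of the 7 members that fell with litter as a block, mutant kidneys left and control kidneys right, with lines joining the libraries of a litter and crosses at the mean with its SD (n = 3). In all 7 panels the mutant point lies below the control point of its litter, and Ube2c is the panel in which the groups overlap.

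None of the 3 Polo and Aurora A kinase genes was called in either fit, and all 3 differences were below 0. Plk4, which controls centriole duplication, had 111.5, 83.0 and 99.9 CPM in mutant kidneys, against 120.2, 97.7 and 103.6 CPM in control kidneys. It was lower in the mutant library of each litter by less than the libraries of 1 group differed. Plk1, which acts in spindle assembly and cytokinesis, averaged 82.6 ± 12.2 CPM in mutant kidneys and 84.2 ± 14.6 CPM in control kidneys. Aurka, encoding the Aurora A kinase of the spindle poles, was chosen for mention after its values were seen. Its log2 difference was -0.30 and -0.17 in litters 1 and 3 and 0.11 in litter 2.

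The 5 genes of the spindle assembly checkpoint were all below 0, and 1 of them fell with the block. Mad2l1 encodes MAD2, which inhibits the activator of the anaphase-promoting complex. It had 123.3, 106.8 and 111.6 CPM in mutant kidneys, against 134.4, 128.4 and 124.1 CPM in control kidneys. The groups just failed to overlap, with the mutant library of litter 1 close to the control library of litter 3. The log2 difference was -0.18 (SE 0.047 with the block, limma adjusted p = 0.045, and 0.47 for genotype alone). Ttk, encoding the checkpoint kinase MPS1, had 72.8, 57.1 and 63.6 CPM in mutant kidneys, against 82.9, 76.9 and 67.4 CPM in control kidneys. It was lower in each litter and most in litter 2, at -0.43, and the adjusted p with the block was 0.067. Bub1b, encoding BUBR1, had the highest mean of this role and averaged 221.5 ± 8.96 CPM in mutant kidneys and 234.0 ± 15.2 CPM in control kidneys. Bub1 and Bub3, whose products form a complex at kinetochores, differed by -0.18 and -0.089 and were not called.

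Among the 4 genes for the anaphase-promoting complex's activator and ubiquitin-conjugating enzyme, securin and separase, 1 fell with the block. Ube2c, the ubiquitin-conjugating enzyme that works with the complex, had 118.0, 124.9 and 140.0 CPM in mutant kidneys, against 129.9, 147.6 and 154.0 CPM in control kidneys. The control library of litter 1 lay below the mutant library of litter 3, so the groups overlapped, while within each litter the mutant library was lower. The log2 difference was -0.17 (SE 0.045 with the block, limma adjusted p = 0.044, and 0.56 for genotype alone). Cdc20, the activator of the complex, averaged 175.4 ± 21.1 CPM in mutant kidneys and 190.6 ± 14.4 CPM in control kidneys (adjusted p = 0.11 with the block). Pttg1, encoding securin, differed by -0.43 in litter 2 and by -0.045 and -0.014 in litters 1 and 3. Espl1, encoding separase, was the sole member of this role above 0, with 70.5, 85.5 and 83.5 CPM in mutant kidneys, against 68.1, 85.4 and 68.7 CPM in control kidneys. Its excess came mostly from litter 3.

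The centromere and kinetochore genes held the lowest difference of all 58, and 2 of these 9 genes fell with the block. Spc24, a subunit of the NDC80 complex that grips microtubules, had 39.7, 43.5 and 41.9 CPM in mutant kidneys, against 48.2, 52.7 and 53.3 CPM in control kidneys. The groups were clearly separate, and all 3 litters gave a like difference, at -0.28, -0.27 and -0.34 on the log2 scale. Cenpa, the histone H3 variant that marks centromeres, had 125.4, 136.7 and 129.0 CPM in mutant kidneys, against 145.7, 158.7 and 155.3 CPM in control kidneys. Here too the groups were separate and the litters alike, between -0.27 and -0.21. The log2 difference of Spc24 was -0.30 (SE 0.055 with the block, limma adjusted p = 0.014), and that of Cenpa was -0.23 (SE 0.042, adjusted p = 0.014). For genotype alone their adjusted p was 0.24 and 0.29.

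The other subunits of the NDC80 complex did not pass the test. Spc25 had 143.5, 120.6 and 124.7 CPM in mutant kidneys, against 167.7, 146.9 and 129.1 CPM in control kidneys. It was lower in each litter, least in litter 3, and its adjusted p with the block was 0.061. Nuf2 and Ndc80, which form the other dimer of the complex, differed by -0.17 and -0.14 (adjusted p = 0.072 and 0.14 with the block). Cenpn, whose product binds the CENP-A nucleosome, differed by -0.060. Cenpk, of the inner kinetochore and with the shortest transcript of the 58, had 38.0, 25.5 and 26.5 CPM in mutant kidneys, against 36.7, 39.3 and 26.3 CPM in control kidneys, so that litter 2 alone gave its difference. Cenpf, a kinetochore protein of late G2, had the highest difference of this role at 0.024, and its litters disagreed as described further on.

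No member of the chromosomal passenger complex, which corrects attachments and then moves to the midzone, was called. Birc5, encoding survivin, had 85.7, 90.5 and 88.9 CPM in mutant kidneys, against 95.8, 102.9 and 91.6 CPM in control kidneys. The groups narrowly failed to overlap, and the adjusted p with the block was 0.13. Cdca8, encoding borealin, averaged 130.5 ± 7.64 CPM in mutant kidneys and 138.0 ± 9.62 CPM in control kidneys. Incenp, the scaffold of the complex, and Aurkb, its kinase, differed by -0.0024 and -0.011.

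Among the 8 mitotic kinesins, 1 fell with the block and 6 differences were below 0. Kif2c, encoding the microtubule-depolymerising kinesin MCAK, had 147.2, 143.2 and 135.9 CPM in mutant kidneys, against 168.5, 167.3 and 149.9 CPM in control kidneys. The groups did not overlap, with the highest mutant library just under the lowest control library. The log2 difference was -0.19 (SE 0.042 with the block, limma adjusted p = 0.029, and 0.43 for genotype alone). Kif23, encoding the midzone kinesin MKLP1, stood at the other end of the 58 genes. It had 175.0, 152.5 and 159.9 CPM in mutant kidneys, against 157.7, 148.3 and 134.6 CPM in control kidneys. It was higher in each litter, the groups overlapped, and its log2 difference of 0.15 did not pass the test (SE 0.050, adjusted p = 0.097 with the block). Kif11, encoding the kinesin that pushes spindle poles apart, averaged 198.9 ± 39.8 CPM in mutant kidneys and 207.8 ± 35.5 CPM in control kidneys. Of the rest, Kif15, Kif20b, Kif4 and Kif20a were below 0 at -0.14, -0.11, -0.080 and -0.026, and Kif18b was at 0.025.

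None of the 7 spindle and midzone microtubule-associated proteins was called with the block. Tpx2, which activates Aurora A and nucleates microtubules near chromosomes, had 266.1, 241.9 and 247.1 CPM in mutant kidneys, against 287.7, 274.9 and 255.6 CPM in control kidneys. It was lower in each litter, but the mutant library of litter 1 lay above the control library of litter 3 (adjusted p = 0.11 with the block). Hmmr, encoding a spindle assembly factor also known as RHAMM, had the lowest difference of this role at -0.17 (SE 0.066 with the block, limma adjusted p = 0.12). Aspm, which acts at spindle poles and is known for its role in brain size, had the highest at 0.084, from 120.3, 97.5 and 105.0 CPM in mutant kidneys, against 125.2, 92.6 and 89.1 CPM in control kidneys. Nusap1, Ckap2, Ckap2l and Prc1 lay between -0.086 and 0.038.

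The 3 cytokinesis genes were near 0, and none was called. Racgap1, the GTPase-activating partner of MKLP1 in centralspindlin, averaged 256.8 ± 14.7 CPM in mutant kidneys and 256.1 ± 13.2 CPM in control kidneys. Anln, encoding the ring protein anillin, averaged 157.4 ± 16.2 CPM in mutant kidneys and 148.4 ± 19.0 CPM in control kidneys and was higher in the mutant library of each litter (adjusted p = 0.21 with the block). Ect2, the exchange factor that activates RhoA at the division site, differed by -0.048.

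The condensin, topoisomerase and chromosome surface genes held the most abundant member, and none of these 7 was called with the block. The row with Top2a, encoding topoisomerase II alpha, had 1079, 855.2 and 928.8 CPM in mutant kidneys, against 1122, 915.9 and 918.3 CPM in control kidneys. Libraries of litter 1 were the highest in both groups, and the genotypes overlapped. Ncapd2, a condensin subunit, had the highest difference of this role at 0.044, with 398.7 ± 30.2 CPM in mutant kidneys and 387.4 ± 42.0 CPM in control kidneys. The condensin subunits Smc2, Ncaph and Ncapg differed by 0.016, -0.0069 and -0.10. Per kilobase of transcript, the mean level over the 6 libraries was highest for Top2a, at 185.8 CPM per kb, and lowest for Cenpf, at 10.6 CPM per kb.

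A group of members differed between mutant and control kidneys in opposite directions in litters 2 and 3. Mki67, encoding the chromosome surface protein Ki-67 and widely used to mark cycling cells, had 432.1, 252.9 and 314.8 CPM in the mutant kidneys of litters 1, 2 and 3, against 400.9, 363.6 and 225.1 CPM in the control kidneys. The mutant library was lower in litter 2 and higher in litters 1 and 3. Cenpe, the kinetochore kinesin, had 169.3, 89.8 and 117.8 CPM in mutant kidneys, against 162.8, 146.7 and 91.6 CPM in control kidneys. Cenpf had 155.1, 91.7 and 109.0 CPM in mutant kidneys, against 149.5, 123.1 and 80.1 CPM in control kidneys. In all 3 genes the mutant library of litter 2 and the control library of litter 3 were the lowest pair of the 6 libraries. Smc4, a condensin subunit, had 434.3, 266.1 and 286.5 CPM in mutant kidneys, against 420.3, 376.0 and 259.6 CPM in control kidneys. Cenpe and Kif20b were chosen for mention after their values were seen.

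**Figure D3:**
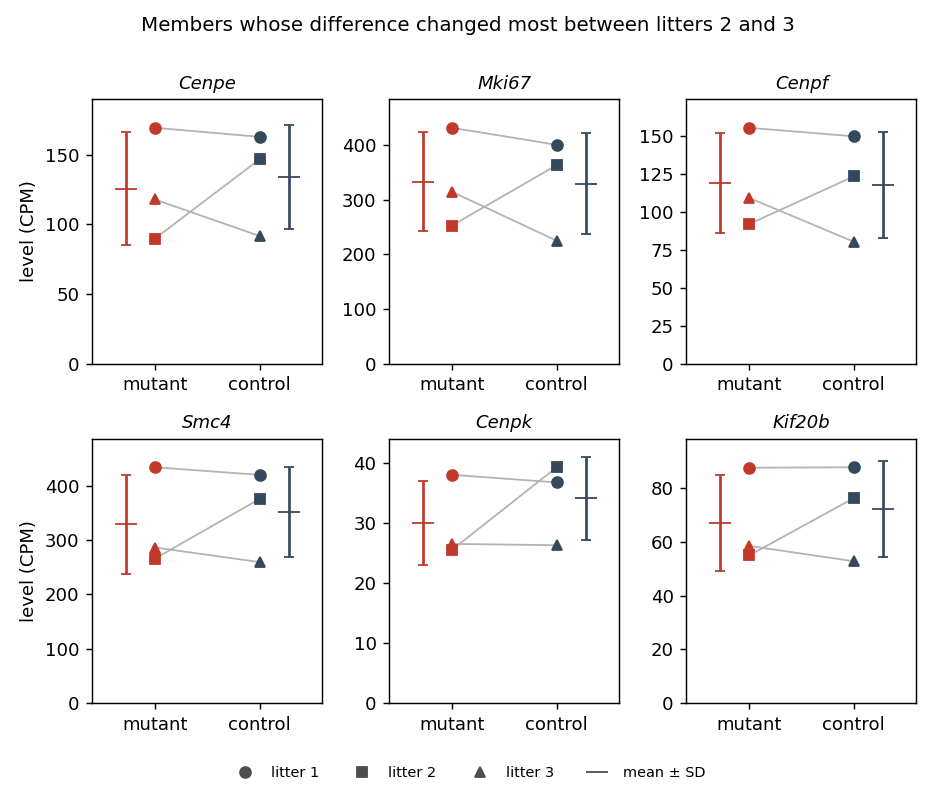
Level in CPM (y axis, from 0) of the 6 members whose difference changed most between litters 2 and 3, mutant kidneys left and control kidneys right, with lines joining the libraries of a litter and crosses at the mean with its SD (n = 3). The mutant point is below the control point in litter 2 and above it in litter 3 in all 6 panels, and the SD bars of both groups overlap.

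The difference in litter 3 minus the difference in litter 2 was 1.07 for Cenpe, 1.01 for Mki67, 0.86 for Cenpf, 0.64 for Smc4, 0.62 for Cenpk and 0.62 for Kif20b on the log2 scale. These 6 of 58 members (10.3%) reached 0.6, a value chosen after the data were seen, against 2.77% of all tested rows. Of the related lists described further on, 2 of 58 other mitosis genes (3.45%) and 1 of 32 replication genes (3.1%) reached it. The median was 0.13 for the members, 0.10 for the other mitosis genes, 0.065 for the replication genes and -0.009 for all rows. After the correction for length and GC described next, 3 of the 58 members reached 0.6 (5.17%), against 2.46% of all tested rows. These were Cenpe at 1.00, Mki67 at 0.99 and Cenpf at 0.79, while Smc4, Kif20b and Cenpk were at 0.50, 0.46 and 0.39. The fitted difference of Mki67 was 0.023 over all 3 litters (SE 0.15 with the block), 0.30 without litter 2 and -0.21 without litter 3. That of Cenpf was 0.024 (SE 0.13), 0.25 without litter 2 and -0.18 without litter 3. Neither gene thus kept a direction over the 3 litters. Over all 58 members, the median difference was -0.065 in litter 1, -0.13 in litter 2 and -0.022 in litter 3, against 0.0014, 0.020 and 0.024 over all rows, with 44, 49 and 33 members below 0.

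Transcript length moved with the differences in these libraries, so the members were set beside rows of like length. Across all tested rows, longer transcripts had higher differences (Spearman's rho 0.44), and across the 58 members rho was 0.43. These correlations run over genes that share the same 6 libraries, and genes are not independent replicates. The longest protein-coding transcript of GENCODE M21 had a median of 3330 bases over the members, between 1306 and 11130 bases, and 3207 bases over all rows. The median GC content was 46.1% for the members and 50.1% for all rows. The rows were cut into 4 classes of nearly equal size by transcript length. In the class with the shortest transcripts, the median difference was -0.14 for 12 members and -0.083 for all rows. In the second class it was -0.054 for 15 members and -0.016 for all rows. In the third it was -0.086 for 19 members and 0.033 for all rows, and in the class with the longest transcripts it was -0.057 for 12 members and 0.12 for all rows. The members' median was thus below that of rows of like length in each class, and the gap was widest among long transcripts.

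**Figure D4:**
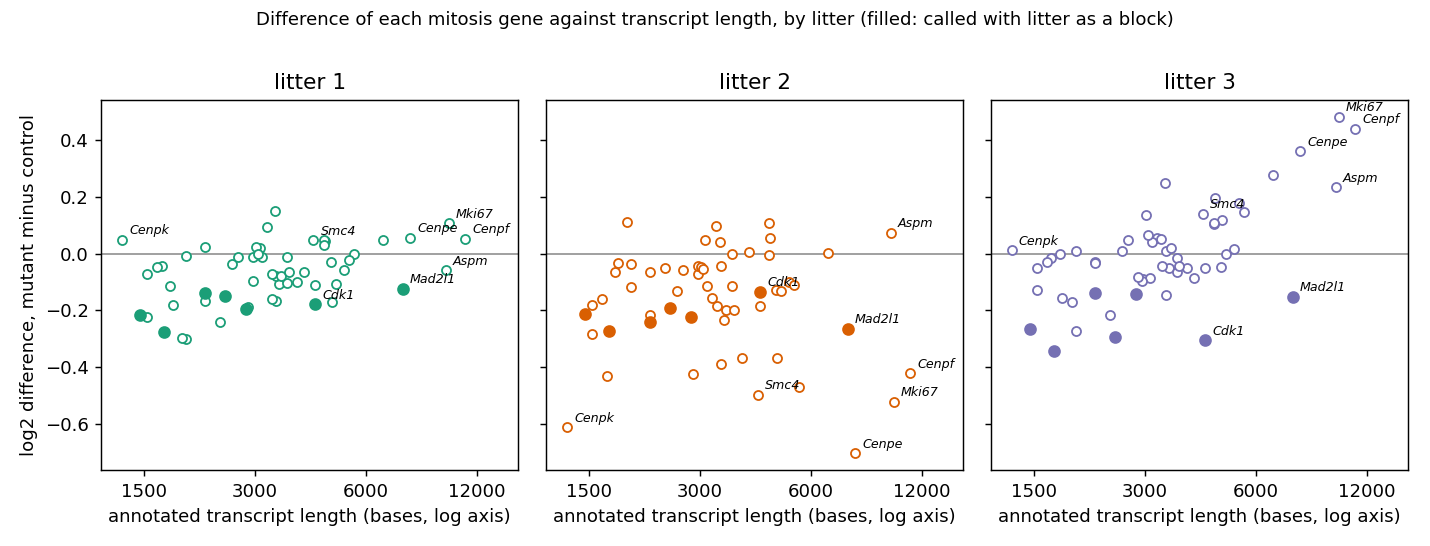
Log2 difference in CPM (mutant minus control, y axis) of each of the 58 genes against the length of its longest annotated coding transcript (x axis, log scale), with 1 panel for each litter and filled points for the 7 genes that fell with litter as a block. Among the 58 genes the difference was higher for longer transcripts in litter 3 (rho 0.53), less so in litter 1 (rho 0.40) and not in litter 2 (rho 0.0032). Over all tested rows rho was 0.31, 0.33 and 0.43 in litters 1, 2 and 3.

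When each library's trend with transcript length and GC content was removed, the median difference of the 58 members was -0.072 and 46 were still below 0. With this correction and litter as a block, 4 members were called, all lower, where 1.92% of all rows were called lower. These were Cdk1 at -0.25 (SE 0.044, limma adjusted p = 0.016), Mad2l1 at -0.28 (SE 0.044, adjusted p = 0.011), Spc24 at -0.24 (SE 0.052, adjusted p = 0.037) and Kif2c at -0.18 (SE 0.041, adjusted p = 0.041). Cenpa, Ccnb1 and Ube2c were no longer called, with differences of -0.15, -0.16 and -0.12 (adjusted p = 0.070, 0.073 and 0.16). Without litter 1 this fit called 2 members, both lower, where 0.995% of all rows were called lower. Without litter 2 it called 4, of which Kif23 was higher, where 2.08% of all rows were called lower and 4.11% higher. Without litter 3 it called 18, all lower, where 4.07% of all rows were called lower.

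The measure of length changed which members were called. The longest annotated transcript of Mad2l1 has 7557 bases, of which 618 are coding, and that of Cdk1 has 4375 bases, of which 894 are coding. With coding length in place of transcript length, 54 of the 58 differences were below 0, where 45.8% of all rows were, and their median was -0.12. In this fit with the block 16 members fell, where 2.48% of all rows were called lower. These were Cdk1, Ccnb1, Cenpa, Spc24 and Kif2c, along with Plk4, Bub1, Bub1b, Ttk, Kif11, Kif15, Kif4, Tpx2, Hmmr, Top2a and Ncapg. Mad2l1 was no longer called (difference -0.13, limma adjusted p = 0.098). The deposited values do not give which transcript each cell used, and the choice between both lengths was not tested. Cdk1, Spc24 and Kif2c were the members called with the block under all 3 treatments of length, none, transcript and coding.

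Other genes of the same pathway, listed with earlier results of these data known, were read beside the 58. Of 58 further mitosis genes, 35 were below 0 with a median of -0.046, where 46.9% of all rows were below 0. For genotype alone 0 were called. An unadjusted limma p below 0.05 was found for 6, all lower, where 3.51% of all rows passed and were lower. With the block 7 fell and 0 rose, where 3.51% of all rows were called lower. The 7 were the CDK1-binding subunits Cks1b and Cks2, the inner kinetochore genes Cenpm and Cenpw, the spindle gene Psrc1, and Cdca3 and Sapcd2. Cks1b had 110.1, 116.8 and 104.1 CPM in mutant kidneys, against 121.6, 139.0 and 123.9 CPM in control kidneys. Cenpw had 22.03, 21.3 and 19.8 CPM in mutant kidneys, against 29.1, 26.6 and 23.1 CPM in control kidneys. In both genes every mutant library lay below every control library, and their log2 differences were -0.21 and -0.31 (limma adjusted p = 0.024 and 0.032 with the block). With the length and GC correction and the block 2 of the 7, Cenpw and Cdca3, were still called, where 1.92% of all rows were called lower.

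Of 32 genes of DNA replication, 24 were below 0 with a median of -0.070, where 46.9% of all rows were below 0. For genotype alone 0 were called, and 1 had an unadjusted limma p below 0.05, where 11.3% of all rows did. With the block 2 fell, Pcna, the sliding clamp of replication, and Mcm10, which acts at origins. In that fit 3.51% of all rows were called lower. Pcna had 615.0, 566.8 and 511.8 CPM in mutant kidneys, against 652.5, 693.1 and 594.7 CPM in control kidneys. It was lower in each litter, with overlapping groups (log2 difference -0.20, limma adjusted p = 0.031 with the block). With the length and GC correction its difference was -0.10 and it was no longer called (adjusted p = 0.18). Mcm10 was still called, and Rrm2, encoding a subunit of ribonucleotide reductase, was called higher (adjusted p = 0.032). This corrected fit with the block called 555 of 13766 rows higher and 264 lower. The summed level of the 58 members was 9301, 8060 and 8386 CPM in mutant kidneys, against 9674, 9003 and 8358 CPM in control kidneys, so that the sums overlapped between groups and were nearly equal in litter 3.

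Markers of several cell types moved in the same libraries. Over all 13766 tested rows, 1091 were called higher and 483 lower with the block. For genotype alone 50 rows were called higher and 27 lower. Of 10 nephron progenitor markers, chosen with earlier results of these data known, 5 fell for genotype alone and 8 with the block. Their summed level was 314.8, 322.2 and 306.2 CPM in mutant kidneys, against 549.2, 594.5 and 564.3 CPM in control kidneys. Capn6 weighed most in these sums, averaging 136.0 CPM in mutant kidneys and 286.4 CPM in control kidneys. Six2 and Eya1 differed by -0.39 and -0.35 on the log2 scale. Crym and Osr1, at -0.11 and 0.082, were not called. Cited1, a defining marker of the uncommitted progenitor, had 9.32, 12.9 and 10.4 CPM in mutant kidneys, against 37.4, 53.1 and 51.9 CPM in control kidneys. The 10 stromal markers summed to 3437 to 4075 CPM in mutant kidneys, against 2946 to 3239 CPM in control kidneys, and 2 rose for genotype alone and 3 with the block. The 8 macrophage markers summed to 112.5 to 137.1 CPM in mutant kidneys, against 101.9 to 106.3 CPM in control kidneys, and 1 rose with the block. The 7 endothelial markers summed to 915.5 to 944.6 CPM in mutant kidneys, against 817.4 to 856.1 CPM in control kidneys, and 4 rose with the block. The 9 ureteric markers summed to 799.5 to 872.1 CPM in mutant kidneys, against 786.9 to 791.0 CPM in control kidneys, with 2 rising under the block. The 8 proximal tubule markers summed to 1067 to 1391 CPM in mutant kidneys, against 876.7 to 1047 CPM in control kidneys, and 4 rose with the block. Progenitor, stromal, macrophage, endothelial, ureteric and proximal tubule sums did not overlap between the groups.

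The 6 podocyte markers summed to 460.0 to 514.2 CPM in mutant kidneys, against 443.9 to 553.0 CPM in control kidneys, and 1 fell with the block. The erythroid markers with a row (8 of 12) summed to 906.3 to 1091 CPM in mutant kidneys, against 999.9 to 1191 CPM in control kidneys, and none was called in either limma fit (0 for genotype alone and 1 with the block at an unadjusted p below 0.05). With the length and GC correction added to the block, 8 progenitor markers and 1 podocyte marker fell, and 3 stromal, 3 endothelial, 1 ureteric, 1 proximal tubule and 0 macrophage markers rose. In that fit 555 of all 13766 tested rows were called higher and 264 lower. No measured marker was at 0 in any library. The part of the progenitor, stromal and other shifts in the differences of the mitosis genes was not tested.

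**Figure D5:**
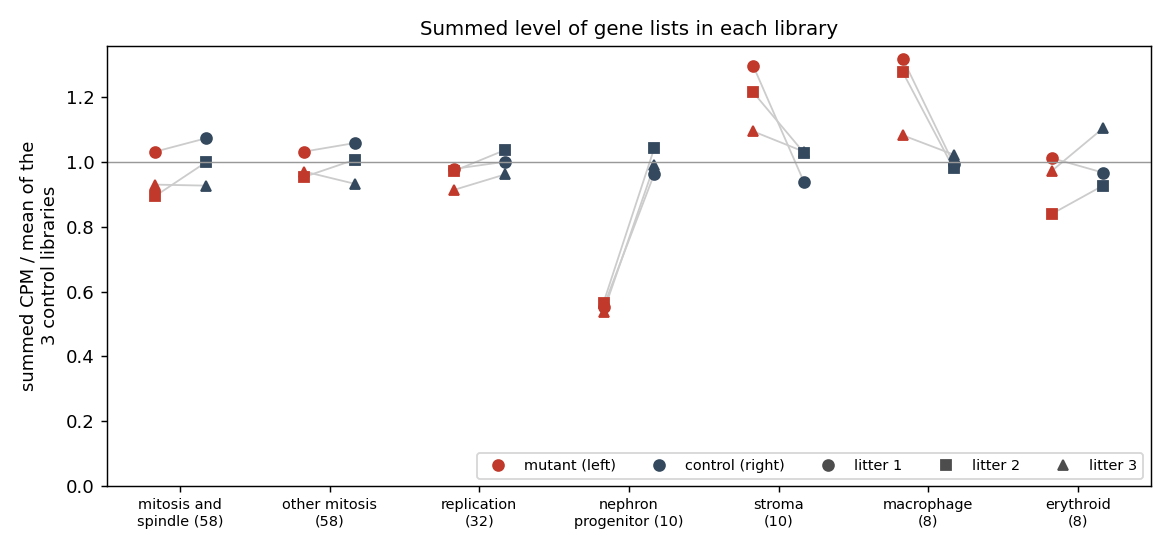
Summed CPM of each gene list in each library, divided by the mean of the 3 control libraries (y axis, from 0), with mutant kidneys left and control kidneys right in each list and lines joining the libraries of a litter. The 58 mitosis and spindle genes overlap between the groups, while the nephron progenitor sums of mutant kidneys lie apart below those of control kidneys.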

How the data were processed

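RNA from 6 whole kidneys was sequenced, per the labels' protocols after Trizol extraction and library preparation with the Illumina TruSeq RNA kit. The authors deposited 1 table of CPM values, reads per gene scaled to the total of each library. The submitters' processing notes name TopHat2 2.0.9, Picard and SAMtools, and NCBIM37 as the genome build. The counting program, its strand setting and its annotation are not given in the sources used here. The value of 1 read in each column, inferred from the CPM values, gave the library totals. Every listed value was a whole number of such reads to within 2.65e-05 reads. The table held too few low values for these reads to be accepted as recovered counts, so no count model was run on them. Between 0.105% and 0.117% of a total is missing from its column. Of 13965 rows, 526 join more than 1 identifier, and 270 had no annotated length.

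The 13766 rows that reached 1 CPM in 3 or more libraries were compared as log2(CPM + 0.5) with limma 3.58.1 in R 4.3.3, with the mean-variance trend on and Benjamini-Hochberg adjustment over all of these rows. Calls were made below an adjusted p of 0.05. Genotype was the sole term, and the alternative set beside each result adds litter, which the labels give, as a block. Deviations from the group means correlated at 0.619, 0.446 and 0.312 across genes between the mutant and the control library of the same litter, and at -0.514 to 0.172 between litters. Within a group the deviations of a gene cancel out, so the between-litter values are not independent of the same-litter values. For the length and GC correction, natural splines with 4 degrees of freedom on log2 transcript length and on GC content were fitted to each library's deviations and removed. Lengths came from the longest protein-coding transcript of GENCODE M21. A fold change on this scale slightly understates the change of low genes. The libraries of a group come from different litters, per the labels.

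The members and lists were chosen with earlier results of these data known, so no test over a list was made. Named by rule were, in each role, the member with the highest mean and those with the highest and the lowest difference, all members called in either fit, and those with the 3 longest and the 3 shortest transcripts. Other scalings, pseudocounts, filters and left-out libraries were tried. Lists for nephron progenitors, stroma, ureteric bud, endothelium, proximal tubule, podocytes, erythroid cells and macrophages were read beside the members. Promoters and mature microRNAs came from RefSeq tables of GRCm38.p6, and no coordinates were taken from the deposited table.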

Additional observations from a re-analysis of the deposited data

How the results depend on the processing

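Both trimmed-mean and median-ratio scaling, pseudocounts of 0.1 and 1, no filter on low values, a filter of 5 CPM and the length and GC correction left the count of called members at 0 in the fit of genotype alone, and their median difference lay between -0.10 and -0.072. The replicate block called 7 members, 8 with either scaling (Cdc25c in addition), 4 with the length and GC correction and 16 with coding length. The alternatives with coding length, with scaling and block together, and with a litter left out of the corrected block were chosen after seeing the data. Over all rows 1574 were called with the block, 1488 and 1501 with trimmed-mean and median-ratio scaling added, 819 with the length and GC correction added and 1048 with coding length, against 77 for genotype alone and 236 with the correction alone. Of the other mitosis genes the block called 7, also with either scaling, 2 with the correction and 3 with coding length. Of the replication genes it called 2, also with either scaling, 2 with the correction, 1 of them higher, and 1 with coding length. Leaving out a library or a litter gave 0 to 18 called members, 1 to 2348 called rows, 0 to 17 other mitosis genes and 0 to 4 replication genes, the highest counts all without litter 3. A count from 2 litters rests on few degrees of freedom. The causes were not tested.

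Several members changed sign, none of them among the 7 called with the block. Their differences were not all small, with Cenpk at -0.18 and Smc4 at -0.10 in the fit of genotype alone. Of the 58, 10 changed sign with the length and GC correction (among them Cenpn, Aurkb, Ckap2, Smc2 and Ncaph) and 10 with coding length (among them Aurkb, Kif18b and Smc2). Among the genes named by rule, with the length and GC correction, with or without the block, Plk1 was at 0.027, Cenpf at -0.13, Aspm at -0.062, Ncapd2 at -0.018 and Mki67 at -0.14. With coding length, of the genes named by rule, Espl1 was at -0.032, Cenpf at -0.18, Aspm at -0.13, Anln at -0.0057, Racgap1 at -0.033, Ncapd2 at -0.064 and Mki67 at -0.20. Racgap1 was at -0.011 with trimmed-mean and at -0.013 with median-ratio scaling, with or without the block. With a library or a litter left out, the range was -0.021 to 0.19 for Foxm1, -0.17 to 0.11 for Plk1, -0.093 to 0.22 for Espl1, -0.32 to 0.25 for Cenpf, -0.36 to 0.092 for Cenpk and -0.070 to 0.084 for Incenp. It was -0.14 to 0.038 for Cdca8, -0.22 to 0.065 for Kif11, -0.12 to 0.24 for Aspm, -0.13 to 0.024 for Ect2 and -0.037 to 0.047 for Racgap1. It was -0.14 to 0.051 for Top2a, -0.32 to 0.094 for Smc4, -0.060 to 0.13 for Ncapd2 and -0.35 to 0.30 for Mki67. The 7 members called with the block kept a negative difference under all 27 alternatives run. They were picked as lower from these same 6 libraries and were lower in each litter, so this is no independent check. A negative difference in all 15 fits with a library or a litter left out was also kept by genes the block did not call. Among the genes named by rule, these were Cdc25c, Plk4, Bub1b, Ttk, Cdc20, Spc25, Birc5, Tpx2 and Hmmr. The count models planned were not run, since the table held too few low values for its reads to be accepted as recovered counts.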
